A study of Homo sapiens with 3 samples.

Results

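Binding of the transcription factor ETS1 was examined at 10 genes of the core TGF-β pathway. They were the ligands TGFB1 and TGFB2, the receptors TGFBR1 and TGFBR2, the signal transducers SMAD2, SMAD3 and SMAD4, the inhibitory SMAD6 and SMAD7, and the co-repressor gene SKIL. The genes were chosen by name, and they are 10 of the 20163 nuclear protein-coding genes of the GENCODE release 44 annotation on hg19. ETS1 peaks were assigned to a gene if their midpoint lay in the gene body or within 100 kb on either side, a stretch called its window here, and 74 of the 26970 peaks of the study were found this way. Each of the 10 genes had at least 1 peak, and no peak was shared by 2 windows. The peaks came from 3 ChIP-Seq samples of SCC25, an established squamous carcinoma cell line of the tongue that the labels class as mesenchymal. No treatment or genetic change is given in the labels. ETS1 was precipitated with the C20 antibody in 2 of the samples, and with 501A in the remaining sample. What was deposited is 1 list of peak positions shared across the samples by the IDR (Irreproducible Discovery Rate) procedure. It holds no signal, summit or value per sample, so antibodies and replicates could not be compared, and no test between groups was possible. A single cell line was examined, and a peak list carries no transcript level by which its identity or the expression of the 10 genes could be checked. The intervals given below are 95% exact binomial intervals, which cover the counting of genes or peaks only.

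TGF-β ligands are secreted in a latent form and, once released, bring the type II receptor TGFBR2 together with the type I receptor TGFBR1. The activated TGFBR1 kinase phosphorylates SMAD2 and SMAD3, which join SMAD4 and enter the nucleus, where they bind DNA weakly and act beside other transcription factors, AP-1 among them. SMAD6 and SMAD7 are the inhibitory SMADs, and SKIL encodes SnoN, which represses SMAD target genes. In squamous carcinoma the pathway is known both for restraining growth and for promoting the epithelial to mesenchymal transition.

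The peaks were spread very unevenly over the pathway. SMAD3 had 21 peaks in its window, TGFB1 15 and SMAD7 13, and these 3 windows together held 49 of the 74 peaks (66.2%). They were picked as the windows with most peaks, so no interval is given for this share. Of the 15 peaks in the TGFB1 window, only 1 had the TGFB1 start as its nearest protein-coding canonical TSS. TGFBR1 and SMAD6 had 7 each, SMAD2 and SMAD4 had 3 each, TGFB2 and TGFBR2 had 2 each, and SKIL had 1. Binding at a start site of the gene itself was shared by most of the set. Within 500 bp of an annotated TSS of the gene, a peak midpoint was found at 9 of the 10 genes (interval 55.5 to 99.7%), against 53.1% of all protein-coding genes. The exception was TGFB2. The number was 6 with a limit of 200 bp, for which no share of all genes was computed. With the first 13485 lines of the list alone the number at 500 bp was 4, against 34.8% of all protein-coding genes. The list holds no score and the meaning of its line order is not given, so these lines are not known to be the stronger peaks. The canonical TSS was covered by a peak in 7 of the 10 genes, against 51.5% of all protein-coding genes. The background takes in all protein-coding genes, whether or not SCC25 expresses them, and was not matched to the 10 genes by number of annotated TSSs. The higher share is a description of these 10 genes, and what lies behind it was not tested.

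**Figure D1:**
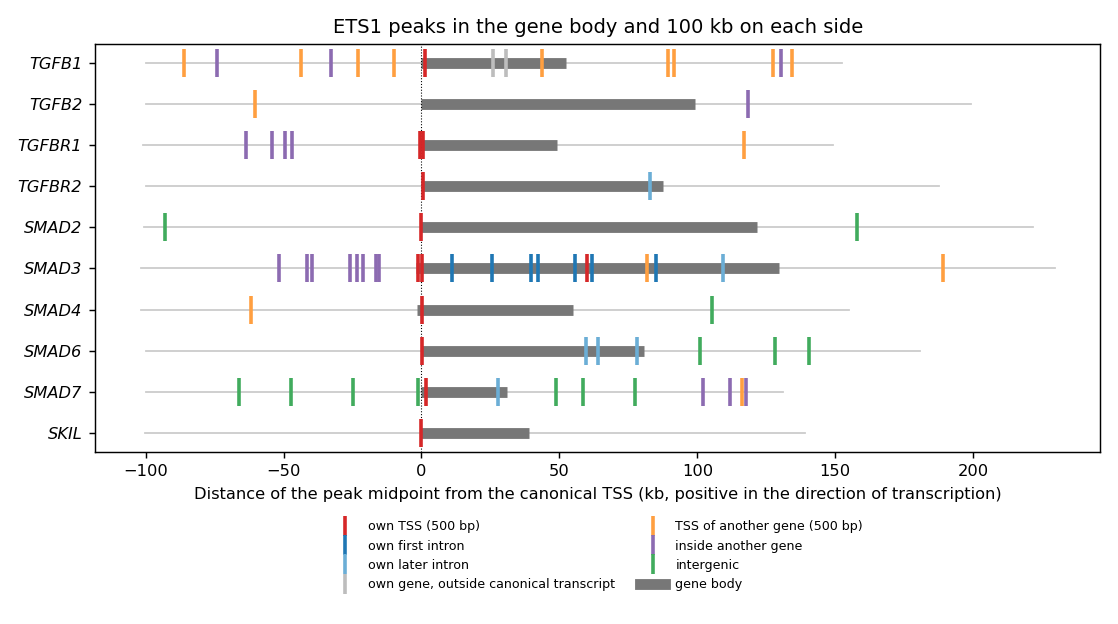
Each tick is the midpoint of an ETS1 peak, placed by its distance in kb from the canonical TSS of the gene named at the left and counted in the direction of transcription. Grey bars are gene bodies, thin lines the 100 kb added on each side, and the colour gives the position class. SMAD3 carries ticks over most of its first intron and upstream of its start, while TGFB2 has none in its body.

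The sequences that carry the description are shown first. Of the 74 peaks, 9 held both an ETS site (CCGGAA or AGGAAG) and the AP-1 site TGACTCA within the 300 bp around their midpoint. This was 12.2% (interval 5.71 to 21.8%), against 8.83% of all nuclear peaks, a value within that interval. Each of the 9 lay over 500 bp from any TSS, and none of the printed stretches overlapped an annotated exon. Over the whole list both sites were found in 13.3% of peaks away from TSSs and in 2.99% of those at a TSS. ETS sites and AP-1 sites are shown because the factors of these families are known to bind together at neighbouring sites. The closest pair of sites is given with 30 bp on each side, 5′ to 3′ on the strand of the gene named, with hg19 positions. Capitals mark both ETS sites, the AP-1 site and a further ETS form (CGGAAG), each on either strand.

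SMAD3, chr15:67342636-67342707 (plus strand): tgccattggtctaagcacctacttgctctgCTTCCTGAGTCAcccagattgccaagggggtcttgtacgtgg
SMAD3, chr15:67332094-67332251 (plus strand): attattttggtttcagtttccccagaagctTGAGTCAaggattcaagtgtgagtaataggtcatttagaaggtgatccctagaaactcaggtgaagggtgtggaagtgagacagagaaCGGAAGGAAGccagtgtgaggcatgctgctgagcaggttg
SMAD6, chr15:67122792-67122873 (plus strand): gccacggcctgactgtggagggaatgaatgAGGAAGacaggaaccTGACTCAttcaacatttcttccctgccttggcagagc
SMAD6, chr15:67072580-67072712 (plus strand): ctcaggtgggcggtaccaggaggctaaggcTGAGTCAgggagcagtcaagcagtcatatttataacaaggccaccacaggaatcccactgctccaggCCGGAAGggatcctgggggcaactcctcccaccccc
SMAD7, chr18:46524574-46524698 (minus strand): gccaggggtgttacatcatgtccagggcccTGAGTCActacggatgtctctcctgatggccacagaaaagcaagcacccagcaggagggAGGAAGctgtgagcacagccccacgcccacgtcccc
SMAD7, chr18:46399790-46399902 (minus strand): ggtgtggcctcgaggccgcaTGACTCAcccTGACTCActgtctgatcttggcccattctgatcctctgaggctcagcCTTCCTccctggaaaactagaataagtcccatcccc
SMAD2, chr18:45550070-45550204 (minus strand): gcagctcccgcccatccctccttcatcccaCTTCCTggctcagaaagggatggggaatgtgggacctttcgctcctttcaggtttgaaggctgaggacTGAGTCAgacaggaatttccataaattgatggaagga
TGFB2, chr1:218637001-218637086 (plus strand): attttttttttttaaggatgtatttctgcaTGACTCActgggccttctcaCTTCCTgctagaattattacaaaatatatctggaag
TGFB1, chr19:41729542-41729643 (minus strand): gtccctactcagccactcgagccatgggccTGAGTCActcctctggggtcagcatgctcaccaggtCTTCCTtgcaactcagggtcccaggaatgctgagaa

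The distance between the sites varied widely. In the SMAD3 peak at −15.4 kb from the canonical TSS the ETS and AP-1 letters shared 1 base, and in the SMAD6 peak 128 kb downstream of the SMAD6 start they stood 9 bp apart. The TGFB2 pair was 13 bp apart and the TGFB1 pair 29 bp apart. In the SMAD7 peak 77.5 kb downstream of the start, where TGACTCA occurred more than once, the closest pair was 40 bp apart, and in the SMAD7 peak at −47.4 kb it was 52 bp apart. The pair of the intronic SMAD6 peak was 60 bp apart, that of SMAD2 62 bp and that of the second SMAD3 peak 85 bp. The stretch printed for TGFB1 lies in the gene of the receptor kinase AXL and not in TGFB1.

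The 27 peaks at a TSS of any gene had the higher GC content, with a median of 63.7% against 55.3% for the 47 away from TSSs. Of the 12 peaks at a TSS of the gene itself, 7 held a stretch free of annotated exons within the 300 bp around the midpoint. Only the longest such stretch of a peak was taken, very short ones were left out, and each was cut to at most 150 bp. No share of the list was computed for such stretches. Of the 7, 3 held CCGGAA or AGGAAG. Those 3 (SMAD7, TGFB1 and TGFBR2) are printed to show the sites, beside that of SMAD2, whose only match was CGGAAG. The midpoints of the SMAD7, TGFB1 and TGFBR2 peaks lay in the first intron, 1.51, 1.37 and 0.394 kb after the canonical TSS. The 3 not printed, at TGFBR1 and at the internal SMAD3 start, held none of these letters.

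SMAD7, chr18:46475751-46475900 (minus strand): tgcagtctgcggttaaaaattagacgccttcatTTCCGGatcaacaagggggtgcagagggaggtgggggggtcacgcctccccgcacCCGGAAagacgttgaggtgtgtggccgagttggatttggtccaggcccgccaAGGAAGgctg
TGFB1, chr19:41858383-41858532 (minus strand): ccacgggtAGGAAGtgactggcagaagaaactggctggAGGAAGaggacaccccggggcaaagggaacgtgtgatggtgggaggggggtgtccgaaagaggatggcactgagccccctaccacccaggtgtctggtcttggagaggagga
TGFBR2, chr3:30648470-30648619 (plus strand): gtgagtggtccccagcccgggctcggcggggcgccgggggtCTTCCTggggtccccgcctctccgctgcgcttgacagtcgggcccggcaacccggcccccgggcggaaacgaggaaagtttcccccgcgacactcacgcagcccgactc
SMAD2, chr18:45457081-45457166 (minus strand): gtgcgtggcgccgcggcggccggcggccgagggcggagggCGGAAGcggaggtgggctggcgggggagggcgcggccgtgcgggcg

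The SMAD7 stretch held 3 matches to CCGGAA or AGGAAG and the TGFB1 stretch 2, while the TGFBR2 stretch held 1. The GC content of the SMAD2 stretch was 87.2%. It held none of those sites or of TGACTCA.

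Of the ligand genes, TGFB1 was bound at its start and TGFB2 was not. TGFB1, which encodes the prototype of the ligand family, lies on the minus strand at chr19:41807492-41859827 among 12 other protein-coding genes that reach into its window. One peak, chr19:41856553-41860364, covered its canonical TSS at 41859827. It was 3812 bp wide, the widest of the 74, and its midpoint lay 1.37 kb inside the gene and 491 bp from the nearest of the 4 annotated TSSs. The remaining peaks of the window lay mostly at neighbouring genes. A TSS of another gene stood within 500 bp of 9 of the 15 midpoints, at AXL, HNRNPUL1, CCDC97, B9D2, TMEM91, EXOSC5, BCKDHA and DMAC2 among others, and a further 3 midpoints lay inside other genes. By the nearest protein-coding canonical TSS, only the wide start-site peak belonged to TGFB1. The last 2 peaks fell in the TGFB1 gene body, but beyond the canonical transcript, in the part that only a longer annotated transcript covers.

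TGFB2 lies on the plus strand at chr1:218518678-218617961, and its window held 2 peaks. Neither was in the gene. The upstream peak, chr1:218457912-218458945, lay 60250 bp before the TSS at the start of RRP15, a gene of ribosomal RNA processing. The downstream peak, chr1:218636596-218637327, lay 118 kb after the TSS inside the long noncoding RNA gene LINC02869, in a region that the study called a super-enhancer from its H3K27Ac data. That peak is the one whose ETS and AP-1 sites are printed above. From its TSS, TGFB2 had 59733 bp to the edge of the nearest peak upstream and 117918 bp downstream.

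Both receptor genes were bound at their start. TGFBR1, the type I receptor kinase, lies on the plus strand at chr9:101866320-101916474 with its canonical TSS at 101867395. Its start was flanked by 2 peaks, chr9:101866438-101867348 of 911 bp and chr9:101867423-101868316 of 894 bp, which were separated by 74 bp. The canonical TSS lay in this gap, 47 bp from the upstream and 28 bp from the downstream peak. Between −63.6 and −46.9 kb, 4 further peaks lay inside COL15A1, the gene of a basement membrane collagen, and the last stood between the starts of ALG2 and SEC61B. Those in COL15A1 were 373 to 835 bp wide, all below the median of the list (969 bp).

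TGFBR2, the type II receptor that binds the ligand, lies on the plus strand at chr3:30648093-30735634. A peak of 1296 bp, chr3:30647840-30649135, covered its canonical TSS. The only other peak of the window, chr3:30730915-30731193 in intron 6, was 279 bp wide and the narrowest of the 74. No other peak was found within 100 kb of the gene.

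The receptor-activated SMADs differed in peak number, with 3 at SMAD2 and 21 at SMAD3. SMAD2, on the minus strand at chr18:45335328-45457517, was bound at its start by a peak of 1611 bp (chr18:45456426-45458036) whose midpoint lay 5 bp from the nearest TSS and which covered 8 of the 12 annotated TSSs. Its body of 122 kb held no other peak. Away from the gene, peaks of 493 and 347 bp were found at −93.1 and 158 kb from the canonical TSS, both intergenic and both below the lower quartile of the list (609 bp).

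SMAD3, on the plus strand at chr15:67356101-67487511, had the largest number of peaks among the 10 genes, 21. Only 0.734% of all protein-coding genes had as many in their window, although windows grow with gene length and that of SMAD3 was 331 kb long against a median of 227 kb. As a density this was 6.34 peaks per 100 kb, which 5.86% of genes reached. By the nearest protein-coding canonical TSS, 19 of the peaks belonged to SMAD3 and the others to AAGAB, which lies beyond its 3′ end. By all annotated TSSs, 10 belonged to SMAD3. The canonical TSS at 67357940 was covered by a peak of 2100 bp, chr15:67357186-67359285. It was one of 3 peaks within 500 bp of a SMAD3 TSS. Another, chr15:67356167-67357004, lay 181 bp upstream of it, and the third, chr15:67417341-67418735, stood 60.1 kb inside the gene with its midpoint 16 bp from another annotated SMAD3 TSS.

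The rest of the SMAD3 peaks formed an upstream and an intronic series. Upstream, 8 peaks lay between −51.7 and −15.4 kb from the canonical TSS, all inside a long noncoding RNA gene of the opposite strand that the annotation names only as ENSG00000259347. Their widths ran from 407 to 1313 bp. Downstream, 7 peaks lay in the first intron over 500 bp from a TSS, between 10992 and 84840 bp after the start, one more in that intron lay at the start of the noncoding gene ENSG00000259202, and a peak of 1132 bp lay in intron 5. Peaks in a gene body over 500 bp from any TSS numbered 8 in SMAD3, a count that 0.575% of protein-coding genes reached. Of the 21 peaks, 20 overlapped 1 super-enhancer of the study. The single peak outside it was that at the start shared by AAGAB and IQCH. The gap to the next peak was under 1 kb for 5 of the SMAD3 peaks.

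SMAD4, the partner common to all receptor-activated SMADs, lies on the plus strand at chr18:48554898-48611415. Its canonical TSS at 48556583 was covered by a peak of 1240 bp, chr18:48556087-48557326, with the midpoint 117 bp from the nearest TSS. There was no other peak in the gene. The 2 others of the window were a peak at the start of ELAC1, at −62.0 kb, and an intergenic peak of 317 bp 105 kb downstream, nearest to MEX3C.

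The inhibitory SMADs had peaks at the start, in introns and in the intergenic sequence around them. SMAD6 lies on the plus strand at chr15:66994574-67075187, and no other protein-coding gene reaches into its window. Its start was covered by a peak of 3759 bp, chr15:66992851-66996609, the second widest of the 74. In intron 3 lay 3 peaks of 851 to 1625 bp, between 59.6 and 78.1 kb after the TSS, and 3 were intergenic beyond the 3′ end, between 101 and 140 kb. As many peaks in the gene body away from any TSS were found at 4.50% of protein-coding genes. SMAD6 and SMAD3 are neighbours, and their windows are 80.9 kb apart. None of the SMAD6 peaks overlapped a super-enhancer, while the SMAD3 window next to it held 20 peaks that did.

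SMAD7, an induced inhibitor of the pathway, lies on the minus strand at chr18:46446223-46477335 and is the shortest gene of the set (31.1 kb). Its window held 13 peaks. By the nearest protein-coding canonical TSS all 13 belonged to SMAD7, and by all annotated TSSs, noncoding genes included, 4 did. The canonical TSS at 46477335 itself was not covered. It lay in a gap of 634 bp between 2 wide peaks, 120 bp from the upstream one (chr18:46477455-46479493, 2039 bp) and 515 bp from the downstream one (chr18:46474833-46476820, 1988 bp). The downstream peak counted as a start-site peak because its midpoint was 123 bp from another annotated SMAD7 TSS. One peak lay in intron 3 and 7 were intergenic, including that just upstream of the start, 3 of them between 24980 and 66239 bp upstream and 3 of them between 48.8 and 77.5 kb downstream. The remaining 4 lay over 100 kb downstream inside CTIF, a gene of mRNA translation that is transcribed towards SMAD7, and 1 of these was at the start of a noncoding RNA within it. Of the 13 peaks, 4 overlapped a super-enhancer, and these were the peaks from 24980 bp upstream to 27656 bp downstream of the canonical TSS.

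SKIL, the co-repressor gene, lies on the plus strand at chr3:170075130-170114623. Its only peak, chr3:170074113-170076397, was 2285 bp wide and covered 5 of the 8 annotated TSSs, the canonical one included. The gap to the next peak downstream was 330594 bp. Of all protein-coding genes, 87.5% had at least 1 peak in their window.

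**Figure D2:**
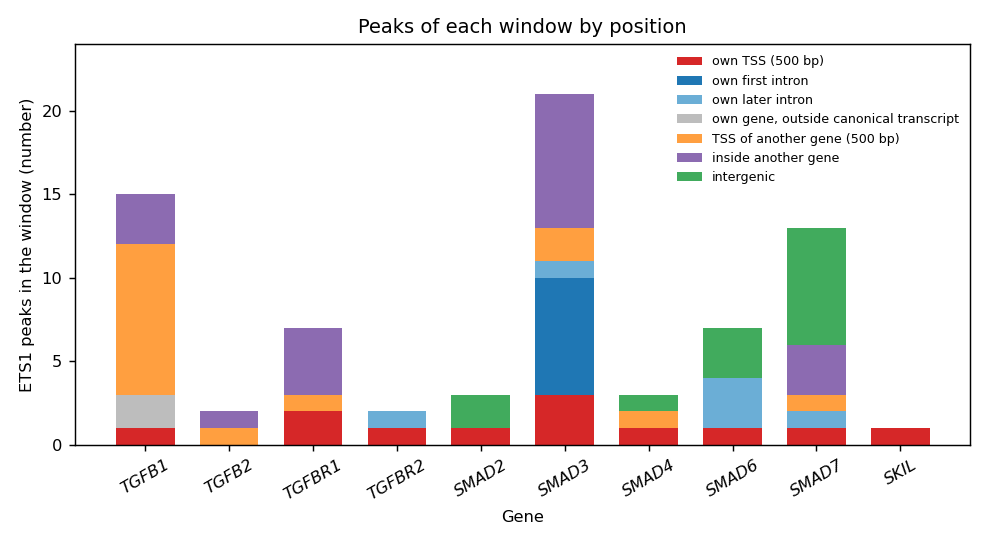
Bars give the number of ETS1 peaks in the window of each gene, divided by position class. Red, the start of the gene itself, is present in 9 of the 10 genes, and the differences in height come from the other classes, which are own introns and the neighbouring noncoding gene for SMAD3, starts of other genes for TGFB1 and intergenic sequence for SMAD7.

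Over the 74 peaks, 12 lay at a TSS of the gene itself (16.2%, interval 8.67 to 26.6%), 15 at a TSS of another gene (20.3%), 13 in its own introns (17.6%), 19 inside another gene (25.7%) and 13 were intergenic (17.6%). The remaining 2 were those at the 3′ side of TGFB1, and none was in an exon of the canonical transcripts away from a TSS. With the classes reduced to those that can be applied to the whole list, 36.5% lay within 500 bp of any TSS (interval 25.6 to 48.5%) against 43.3% of the 26961 nuclear peaks, 45.9% inside a gene (34.3 to 57.9%) against 36.0%, and 17.6% between genes (9.70 to 28.2%) against 20.6%. Each share of the whole list lay within the interval of the 74 peaks, so a departure of the set from the list was not detectable with this number of peaks. A peak in the gene body over 500 bp from any TSS was present in TGFB1, TGFBR2, SMAD3, SMAD6 and SMAD7, 5 of the 10 genes (interval 18.7 to 81.3%). The share of all protein-coding genes, 20.2%, lay within that interval, and genes were not matched by length. TGFB1 counted only by peaks beyond its canonical transcript, and TGFBR2 only by its peak of 279 bp. The windows of the 10 genes were 231 to 331 kb long, with a median of 269 kb, and the median over all genes was 227 kb.

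**Figure D3:**
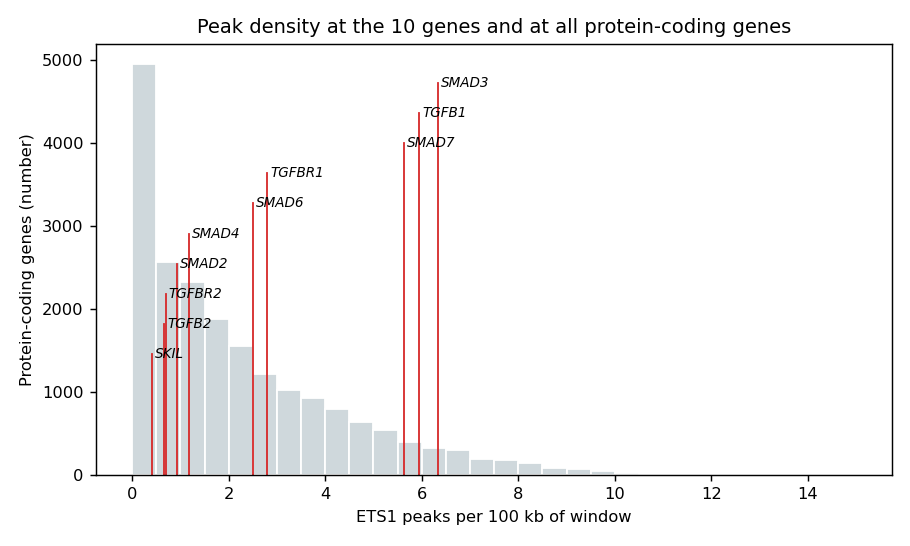
Grey bars count the 20163 protein-coding genes by ETS1 peaks per 100 kb of window, and red lines mark the 10 genes at their own value (line height has no meaning). SMAD3, TGFB1 and SMAD7 stand at 6.34, 5.94 and 5.62 peaks per 100 kb in the upper tail, while SKIL, TGFB2 and TGFBR2 stand at 0.418, 0.668 and 0.696. Most peaks of the TGFB1 window lay at or inside neighbouring genes.

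Set in order of density at a reach of 100 kb, the 10 genes fell into a high, a middle and a low group. Densities were not computed at other reaches. By count, a reach of 50 kb gave 20 peaks for SMAD3, 10 for TGFB1, 8 for SMAD7 and 6 for SMAD6. With 10 kb the counts were 12 for SMAD3, 5 for TGFB1, 4 for SMAD6 and 3 for SMAD7, the shortest gene. The order by count thus depends on the reach. At 100 kb the densities were as follows. The values were 6.34 peaks per 100 kb for SMAD3, 5.94 for TGFB1 and 5.62 for SMAD7. They were 2.80 for TGFBR1 and 2.49 for SMAD6. The low group ran from 1.17 for SMAD4 through 0.931 for SMAD2, 0.696 for TGFBR2 and 0.668 for TGFB2 to 0.418 for SKIL. The median over all protein-coding genes was 1.60 (quartiles 0.555 and 3.36), and at least the densities of TGFB1 and SMAD7 were reached by 7.15% and 8.56% of them. The median of the 10 genes was 1.83. Since the list is pooled, the spread of these values over samples is unknown, and neighbours in the order that differ by 1 peak cannot be ranked.

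Peaks of the set were as wide as those of the list, with a median of 970 bp (quartiles 734 and 1387 bp) against 969 bp. At a TSS the median was 1296 bp for the 27 peaks of the set and 1262 bp for all peaks, and away from TSSs it was 851 bp for 47 peaks and 740 bp for all. The 10 peaks narrower than 500 bp all lay away from TSSs, at SMAD3, SMAD2, TGFBR1, TGFBR2, SMAD4 and SMAD6.

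**Figure D4:**
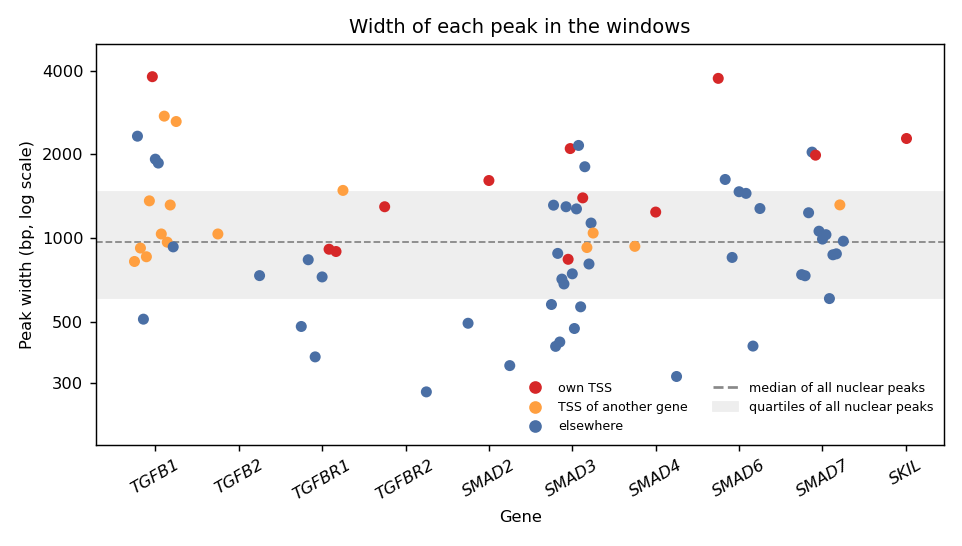
Each point is the width of a peak on a log scale, ordered within a gene by position along it. The dashed line and grey band give the median (969 bp) and quartiles (609 and 1462 bp) of all nuclear peaks. Start-site peaks (red) reach 3812 bp at TGFB1 and 3759 bp at SMAD6, whereas the narrowest points are peaks away from start sites.

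Super-enhancers are long stretches of chromatin with the highest H3K27Ac signal, and the study called 965 of them in SCC25. Of the 74 peaks, 28 overlapped one (37.8%, interval 26.8 to 49.9%), against 17.2% of all nuclear peaks. Within each window the overlapping peaks lay in 1 super-enhancer, so they were not independent of one another. The interval counts them as independent and cannot be read against the share of all peaks. SMAD3 alone supplied 20 of the 28. Without the SMAD3 window the share was 8 of 53 peaks (15.1%), and these were 4 peaks of SMAD7, 3 of the TGFB1 window at AXL and the peak downstream of TGFB2. No peak in the windows of TGFBR1, TGFBR2, SMAD2, SMAD4, SMAD6 or SKIL overlapped one.

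The sequence at the peak midpoints was then compared with that of all nuclear peaks. Motifs were sought on both strands in 300 bp. CCGGAA and AGGAAG are forms of the ETS site and cannot share a GGAA core, since different bases precede it. TGACTCA is the AP-1 site, CAGACA holds the SMAD box and TGTGGT is the core of the RUNX site. An inverted pair of ETS cores, GGAA and TTCC with 4 bases between them, was also sought. CCGGAA was present in 9 of the 74 peaks (12.2%, interval 5.71 to 21.8%) against 16.3% of all peaks, and AGGAAG in 30 (40.5%, interval 29.3 to 52.6%) against 41.2%. Either was present in 48.6% of the set and 51.8% of the list. For both motifs the value of the list lay within the interval of the set. CGGAAG, sought after these values had been seen and overlapping CCGGAA where C precedes it, was present in 23.0% against 18.4%. Away from TSSs it was found in 11 of 47 peaks (23.4%, interval 12.3 to 38.0%) against 11.1% of all such peaks, and the value of the list lay outside the interval. With a sequence window of 200 bp the shares were 14.9% (6.20 to 28.3%) and 7.82%, and with 600 bp 29.8% (17.3 to 44.9%) and 17.4%, so that the list lay within the interval at either width. The bare core GGAA, also added later, was present in 95.9% of the set and 96.3% of all peaks.

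The AP-1 site was a feature of the distal peaks. TGACTCA was found in 16 of the 47 peaks away from TSSs (34.0%, interval 20.9 to 49.3%) against 25.5% of all such peaks, and in 1 of the 27 peaks at a TSS (3.70%, interval 0.0937 to 19.0%) against 5.32%. That single start-site peak is the one at the internal SMAD3 start 60.1 kb inside the gene. SMAD3 and SMAD7 held 11 of the 17 peaks with the site, 6 in SMAD3 and 5 in SMAD7. Their windows also held 34 of the 74 peaks and 27 of the 47 away from TSSs. An AP-1 site together with CCGGAA or AGGAAG was present in 9 of the 47 distal peaks (19.1%, interval 9.15 to 33.3%) against 13.3%. The SMAD box motif CAGACA was present in 17 of the 74 peaks (23.0%) against 20.7%. It was found in 7 of the 15 peaks in the TGFB1 window, those at AXL among them, and in none of the 21 of SMAD3. These windows were picked once their counts were known, so no interval is given. TGTGGT was present in 17.6% against 17.3%, and the inverted ETS pair in 1 peak, at the start of CCDC97 (1.35% against 0.842%). At TSSs the set had a median GC content of 63.7% and a CpG observed to expected ratio of 0.804, and away from them 55.3% and 0.241. The values for the whole list were 67.0% and 0.808 at TSSs and 54.7% and 0.260 away from them.

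**Figure D5:**
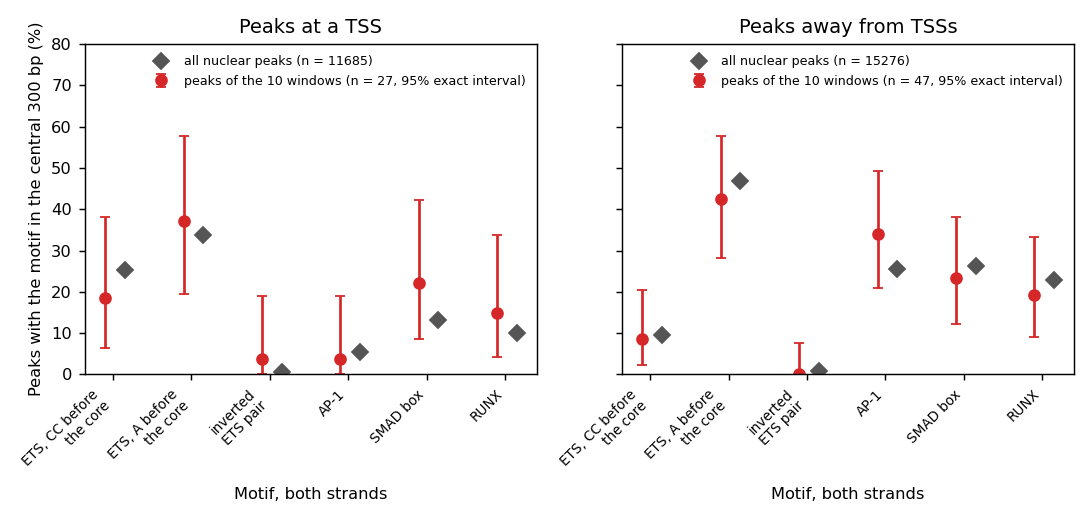
Red points give the percentage of peaks in the 10 windows that hold each plotted motif in the central 300 bp, with 95% exact binomial intervals, and grey diamonds give all nuclear peaks of the same class. The AP-1 site rises from 3.70% at start sites to 34.0% away from them, and for the motifs plotted each diamond lies within the interval beside it. CGGAAG and GGAA, which were sought later, are not plotted.

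Other genes of the pathway were counted by the same rules, in 5 lists of 59 genes in all. At least 1 peak within 500 bp of a TSS was found at 44 of the 59, against 53.1% of all protein-coding genes, and at least 1 peak in the window at 56, against 87.5%. Inhibitors and proteins of turnover were called at the TSS in 12 of 12 genes. Most peaks in their windows were found for SKI, the relative of SKIL (15), FKBP1A, which binds the type I receptor (14), and PMEPA1, a membrane inhibitor of SMAD2 and SMAD3 (14). Of the other ligands and the proteins of latency, 11 of 14 were called, and the latent TGF-β binding proteins LTBP3 (23 peaks), LTBP2 (17) and LTBP4 (14) had most. Other receptors and co-receptors were called in 7 of 11 genes, with most peaks at the co-receptor ENG (18, none at its own TSS), the activin receptor ACVR1B (10) and the co-receptor TGFBR3 (9), and with no peak in the windows of ACVR2B and BMPR1B. Other SMADs and co-factors were called in 4 of 8. FOXH1, a DNA-binding partner of SMADs, had 15 peaks in its window and none at its own TSS, and EP300, a histone acetyltransferase, and TRIM33, a ubiquitin ligase that binds SMADs, had 4 each. Response genes were called in 10 of 14. JUNB, an AP-1 subunit, had 26 peaks in its window and ID1, an inhibitor of basic helix-loop-helix factors, had 14 with none at its own TSS. CCN2, a matrix protein induced by TGF-β, had no peak in its window. These windows also take in neighbouring genes. Midpoints inside the gene body numbered 0 for JUNB and FOXH1, 1 for ENG and 4 for LTBP3, while LTBP2 held 11. The median number of peaks was 4 over the 59 genes, 5 over the 10 genes described above and 4 over all protein-coding genes.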

How the data were processed

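The authors precipitated ETS1 from SCC25 chromatin, using C20 in 2 samples and 501A in 1. Reads were mapped to hg19 with Bowtie 1.1.1, reads with several loci were removed, and peaks were called with MACS2 against a merged input and filtered by IDR over the samples. The deposited list has 3 columns (chromosome, start and end), other values being absent, and is pooled over the samples. Depth per sample is not given in the list.

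From it, midpoints were assigned to genes of GENCODE 44 on GRCh37, the nuclear sequence of hg19. No nuclear peak ran past a chromosome end, and 9 mitochondrial peaks were left out. Position classes were taken in the order own TSS, TSS of another gene, own exon, own intron, inside another gene and intergenic, with a TSS limit of 500 bp and introns of the canonical transcript. Super-enhancers came from the enhancer table of the study, of which the part in hand holds all 965, and an overlap of 1 bp counted. Alternatives were windows of 50 and 10 kb, TSS limits of 200 and 1500 bp, other sets of TSSs, sequence windows of 200 and 600 bp and the first 13485 lines of the list. Named were all 10 genes, neighbours with a TSS at a peak, and in each other list the 3 genes with most peaks and those with none. One gene that this rule names is not reported here. MEX3C, COL15A1, CTIF, LINC02869, ENSG00000259347 and CGGAAG were picked for naming once their values were known. The genes, lists and motifs were chosen with earlier results of these data known. Counting code was tested on simulated data. Sequences were read with pysam 0.24.0, intervals computed with scipy 1.17.1, tables handled with pandas 2.3.3 and numpy 2.4.6 under Python 3.11.15, and plots drawn with matplotlib 3.10.9.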

Additional observations from a re-analysis of the deposited data

How the results depend on the processing

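The number of peaks in the windows, 74, followed the reach of the window and the list by construction, with 55 at 50 kb, 31 at 10 kb, 29 in the gene bodies alone and 40 with the first 13485 lines of the list. Start-site binding was found at 9 of 10 genes with a limit of 1500 bp, against 58.1% of all protein-coding genes. It was found at 9 with the TSS covered by the peak, against 55.9%. With the canonical TSS alone it was found at 7, against 46.1%, and TGFB1 and SMAD7 were lost. It was found at 9 with TSSs of protein-coding transcripts and at 6 with 200 bp, where no share of all genes was computed. With the first 13485 lines it was found at 4 (TGFB1, SMAD2, SMAD3 and SKIL), against 34.8% of all protein-coding genes. The share of peaks nearest to the TSS of the gene was 73.0% by protein-coding canonical TSSs and 31.1% by all annotated TSSs, since noncoding genes then count as neighbours. The position shares, the median width and the number of peaks in super-enhancers moved within their intervals or quartiles in the alternatives run. Motif shares rose with the length searched, for example for AGGAAG from 33.8% at 200 bp to 66.2% at 600 bp, and the inverted ETS pair was found in 0 peaks at 200 bp. No paired analysis was possible because the list pools the 3 samples, and for the same reason no replicate could be left out. The depth of single samples limits which peaks reach the IDR threshold and could not be examined.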
